A study of Rattus norvegicus with 12 samples.

Results

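The genes Mettl2b, Atp11b, Septin5, Galr2, Slc17a9, Sh2d4a, Ccdc92, Stambpl1, Crot and Tub are 10 of the 16770 genes in the deposited table. They were picked by symbol because their levels had been seen to differ between 2 rat strains in these same libraries, after copies of other genes and histocompatibility genes had been set aside. Their strain differences are therefore given as a description and without a test, while their changes with age over both strains and between batches were not used in the choice and were tested. All 10 passed the filter on low counts that left 13397 genes for testing. By edgeR, with a gene called where its Benjamini-Hochberg adjusted p over all tested genes was under 0.05, all 10 were called between the strains at 5 days (background 0.343%), but Mettl2b, Atp11b, Septin5 and Galr2 alone were also called at 3 months (background 0.358%). The other 6 were thus called at 1 of the 2 ages, and a name as genes that mark strain at both ages holds for 4 of the 10 by that criterion. Without single libraries these counts ran from 2 to 10 at 5 days and from 3 to 5 at 3 months. In the 6 fits per age that each left out 1 library of the groups compared, Mettl2b and Atp11b were called in all 6 at both ages. Septin5 was called in 4 of 6 at 5 days and 6 of 6 at 3 months, and Galr2 in 1 of 6 at each age. Since these comparisons chose the genes, nothing further is read from those counts.

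RNA was sequenced from primary cultures of cells labelled articular chondrocytes, grown out of rat knee (femorotibial) cartilage that had been digested with collagenase D. The 12 libraries came from spontaneously hypertensive rats (SHR, an inbred strain with high blood pressure) or Wistar Kyoto rats (WKY, its normotensive control strain), taken at 5 days or 3 months of age, with 3 libraries for each strain and age. All cultures were kept in DMEM/F12 medium with 5% fetal bovine serum and antibiotics, and the labels name no engineered allele and no drug in any group. The labels put replicates 1 and 2 of each group in batch 1 and replicate 3 in batch 2, give no sex and no collagenase dose per sample, and leave unsaid whether the replicates of a group were separate animals or cultures. The p-values therefore reflect the spread between these libraries, which may be technical.

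Library totals ran from 17839101 to 20358123 expected counts. The labelled cell type was only partly borne out by its markers: 13 chondrocyte genes summed to 26.1 to 1093 CPM (counts scaled to the library total, with TMM scaling) in batch 1 and to 536 to 30763 CPM in batch 2, and among the batch 1 libraries at 3 months Col2a1, the main cartilage collagen, reached 3.18 CPM at most (0.0521 and 3.18 in WKY, 0.577 and 0.175 in SHR). Matn1 and Cnmd, a cartilage matrix protein and a cartilage-derived membrane glycoprotein, were at 0 in all WKY libraries at 3 months. Replicates 1 and 2 of SHR at 5 days lay closer together (chi-square per gene 4.22) than any other pair of replicates (40.1 to 340), though above sampling noise, and were kept as 2 libraries. The Y-linked gene Kdm5d was at 44.2 and 28.9 CPM in replicates 2 and 3 of WKY at 5 days, and at 0.239 CPM or less in the other 10 libraries, so in those 2 libraries sex and strain cannot be told apart.

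The 10 genes encode proteins with unlike tasks. Atp11b, Galr2 and Slc17a9 work in membranes: a flippase subunit that moves phospholipids from the outer to the inner leaflet, a receptor for the neuropeptide galanin, and the transporter that loads ATP into secretory vesicles. Mettl2b, Stambpl1 and Crot are enzymes that methylate a cytidine of certain tRNAs, cut ubiquitin chains on endosomes, and attach medium-chain acyl groups to carnitine in peroxisomes. Septin5, Sh2d4a, Ccdc92 and Tub are a filament-forming GTP-binding septin, an adaptor with an SH2 domain, a coiled-coil protein of centrioles and cilia, and tubby, which carries membrane receptors into the primary cilium. In cartilage, ATP released by chondrocytes is split outside the cell into pyrophosphate, which holds back mineral deposition, and the primary cilium takes part in hedgehog and mechanical signalling.

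Promoter sequences were found in the RefSeq table (assembly GRCr8) for 5 of the 10 genes, Atp11b, Galr2, Ccdc92, Crot and Tub. The windows run from 250 bases before to 50 bases after the start of the gene, and belong to the reference rat, so they hold no SHR or WKY variant. The windows of Atp11b and Galr2, the pair of lower genes called at both ages, and of Tub, which changed most with age, are shown 5′ to 3′ on the gene's own strand, with each match to the GC box letters GGGCGG or their reverse complement CCGCCC in capitals. Their positions are chr2:120513325-120513624, chr10:102013376-102013675 and chr1:172443092-172443391, all on the plus strand.
Atp11b: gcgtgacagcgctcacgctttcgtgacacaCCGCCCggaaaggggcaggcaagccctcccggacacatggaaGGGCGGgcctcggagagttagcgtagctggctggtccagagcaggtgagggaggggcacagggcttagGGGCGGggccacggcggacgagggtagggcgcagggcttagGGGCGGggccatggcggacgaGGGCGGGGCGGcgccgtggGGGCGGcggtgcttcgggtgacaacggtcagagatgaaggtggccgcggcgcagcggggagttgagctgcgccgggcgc
Galr2: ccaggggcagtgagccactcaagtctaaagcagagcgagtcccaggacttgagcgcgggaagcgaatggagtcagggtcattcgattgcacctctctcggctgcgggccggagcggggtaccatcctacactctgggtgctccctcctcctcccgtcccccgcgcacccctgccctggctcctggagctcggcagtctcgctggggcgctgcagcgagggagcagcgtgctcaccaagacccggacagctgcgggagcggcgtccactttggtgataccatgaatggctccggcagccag
Tub: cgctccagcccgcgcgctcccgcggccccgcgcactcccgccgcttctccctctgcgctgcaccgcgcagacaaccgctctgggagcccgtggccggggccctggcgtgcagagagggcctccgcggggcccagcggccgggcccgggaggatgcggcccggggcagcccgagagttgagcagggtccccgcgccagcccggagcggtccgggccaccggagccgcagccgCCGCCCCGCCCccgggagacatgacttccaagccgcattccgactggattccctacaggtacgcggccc

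The Atp11b window held 7 GC box matches, of which a pair overlap, the Tub window held 2 that overlap, and the Galr2 window held none. In the windows not printed, Crot had 3 GC box matches and 1 CCAAT match, and Ccdc92 had neither. Of 33469 rat promoter windows of the same length, 33.1% held GGGCGG and 37.5% held CCAAT on either strand. Searches on both strands for TATAAA (in 14.2% of all windows), CACGTG (6.42%) and TGAGTCA (4.63%) found no match in any of the 5. The 5 windows held 22 to 44 CpG dinucleotides each, against a median of 7 over all windows. These are letter matches in the reference, not measured binding sites.

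**Figure D1:**
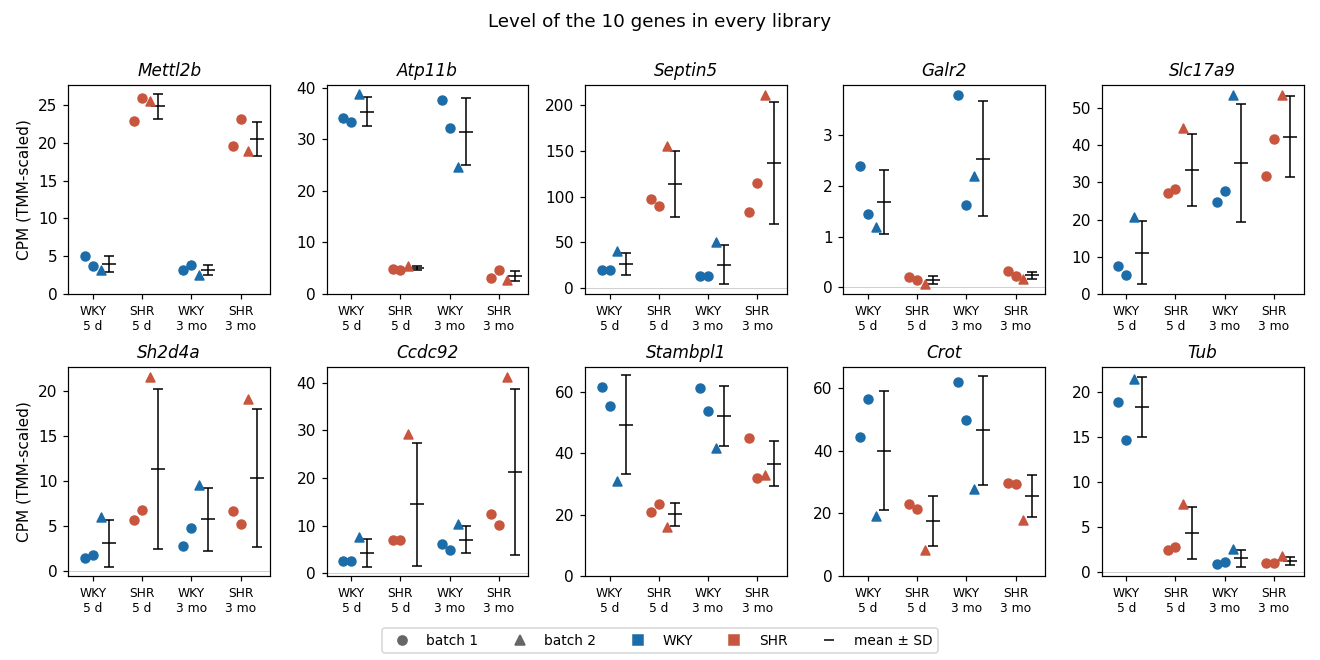
TMM-scaled CPM (vertical axis, linear, 1 scale per gene) of the 10 genes in the 12 libraries, by strain and age; circles are batch 1, triangles batch 2, and the bars beside the points are the mean ± SD of 3 libraries. Mettl2b and Atp11b separate SHR from WKY at both ages with little spread, whereas in Sh2d4a and Ccdc92 the batch 2 library of each group stands above the other two.

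Among the membrane proteins, Atp11b (gene 361929) was lower in SHR at both ages. At 5 days it was at 34.1, 33.3 and 38.7 CPM in replicates 1, 2 and 3 of WKY and at 4.87, 4.64 and 5.44 CPM in those of SHR. At 3 months it was at 37.6, 32.2 and 24.6 CPM in WKY and at 3.04, 4.67 and 2.69 CPM in SHR. Every WKY library lay far above every SHR library, with no overlap at either age. The log2 difference, SHR minus WKY, was -2.83 (SE 0.23) at 5 days and -3.18 (SE 0.23) at 3 months. Within batches the WKY to SHR ratio was 7.10 in batch 1 and 7.12 in batch 2 at 5 days, and 9.05 and 9.16 at 3 months. Leaving out each library in turn moved the log2 difference between -3.01 and -2.66 at 5 days and between -3.45 and -3.05 at 3 months.

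Galr2 (gene 29234) was low in all groups and close to the counting limit in SHR. At 5 days it was at 2.39, 1.44 and 1.201 CPM in WKY and at 0.209, 0.153 and 0.0598 CPM in SHR. The expected counts were 48.96, 27.69 and 20.94 against 3.65, 3.24 and 1, and were rounded to whole counts before the CPM were computed. At 3 months the levels were 3.80, 1.62 and 2.21 CPM in WKY and at 0.315, 0.234 and 0.168 CPM in SHR. The strains did not overlap at either age. The log2 differences were -3.53 (SE 0.51) and -3.40 (SE 0.48), the largest in size and the least precise of the 10 genes at both ages. Without single libraries they ran from -3.81 to -3.28 and from -3.74 to -3.11. The expected count of Galr2 was not whole in 11 of 12 libraries, as happens where RSEM divides reads between features, so its level is uncertain; the features involved are not given in the sources used here. Of its known ligand genes, galanin (Gal) averaged at most 0.0572 CPM and spexin (Spx) at most 0.0369 CPM in any group (SD 0.0991 and 0.0323, n = 3), and neither passed the filter.

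Slc17a9 (gene 362287) was higher in SHR at 5 days, and the strains lay close together at 3 months. At 5 days it was at 7.52, 5.11 and 20.7 CPM in WKY and at 27.1, 28.4 and 44.6 CPM in SHR. By 3 months it was at 24.6, 27.6 and 53.6 CPM in WKY and at 31.7, 41.7 and 53.7 CPM in SHR. The strains were apart at 5 days and overlapped at 3 months, where the batch 2 libraries were nearly level. The log2 difference was 1.75 (SE 0.26) at 5 days and 0.34 (SE 0.25) at 3 months. At 5 days the SHR to WKY ratio was 4.39 in batch 1 and 2.15 in batch 2, and at 3 months 1.41 and 1.00. The 5-day difference ran from 1.502 to 2.11 without single libraries.

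Among the enzymes, Mettl2b (gene 363687) was higher in SHR by nearly the same amount at both ages. At 5 days it was at 5.08, 3.66 and 3.15 CPM in WKY and at 22.9, 25.9 and 25.6 CPM in SHR. At 3 months it was at 3.13, 3.89 and 2.49 CPM in WKY and at 19.6, 23.1 and 18.9 CPM in SHR. No WKY library came near an SHR library. The log2 differences were 2.66 (SE 0.20) and 2.70 (SE 0.20). The SHR to WKY ratio was 5.59 in batch 1 and 8.14 in batch 2 at 5 days, and 6.08 and 7.60 at 3 months. Without single libraries the log2 difference ran from 2.49 to 2.84 at 5 days and from 2.60 to 2.84 at 3 months.

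Stambpl1 (gene 687696) was lower in SHR at 5 days, at 20.7, 23.4 and 16.1 CPM, than in WKY, at 61.7, 55.6 and 31.0 CPM. At 3 months its levels were 45.2, 31.8 and 33.0 CPM in SHR and at 61.2, 53.8 and 41.7 CPM in WKY. The strains were apart at 5 days and overlapped at 3 months, where the highest SHR library passed the lowest WKY library. The log2 difference was -1.27 (SE 0.18) at 5 days and -0.49 (SE 0.18) at 3 months. Crot (gene 83842) was at 44.4, 56.5 and 19.3 CPM in WKY and at 23.1, 21.4 and 8.37 CPM in SHR at 5 days. The 3-month levels were 62.1, 49.8 and 27.8 CPM in WKY and at 29.7, 29.3 and 17.7 CPM in SHR. Its strains overlapped at both ages, because the batch 2 library of WKY was as low as the batch 1 libraries of SHR. Within each batch WKY was above SHR, by ratios of 2.27 and 2.30 at 5 days and 1.90 and 1.57 at 3 months. The log2 difference of Crot was -1.18 (SE 0.18) at 5 days and -0.82 (SE 0.18) at 3 months. Without single libraries the 5-day difference ran from -1.43 to -1.15 for Stambpl1 and from -1.29 to -1.03 for Crot.

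Among the scaffold, adaptor and cilium proteins, Septin5 (gene 116728) was higher in SHR at both ages and also higher in batch 2. At 5 days it was at 20.4, 19.5 and 40.9 CPM in WKY and at 97.1, 89.2 and 155 CPM in SHR. At 3 months it was at 13.03, 13.6 and 50.1 CPM in WKY and at 83.7, 115 and 211 CPM in SHR. The third library, of batch 2, was the highest in each group, and the strains still did not overlap. The log2 difference was 2.14 (SE 0.23) at 5 days and 2.58 (SE 0.24) at 3 months. The ratio was 4.67 and 3.79 in batches 1 and 2 at 5 days, and 7.45 and 4.21 at 3 months. Without single libraries the log2 difference ran from 2.02 to 2.30 at 5 days and from 2.43 to 2.94 at 3 months. The expected count of Septin5 was not whole in 9 of 12 libraries, so its level too is uncertain. Gp1bb, the platelet glycoprotein gene next to Septin5 in the gene order, was close to the counting limit, with group means of 0.16 to 0.47 CPM. Its log2 differences of 0.60 (SE 1.23) and 1.07 (SE 1.13) were too imprecise to give a direction, and it was called at neither age.

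Sh2d4a (gene 306376) was at 1.417, 1.81 and 6.06 CPM in WKY and at 5.71, 6.83 and 21.6 CPM in SHR at 5 days. The 3-month levels were 2.81, 4.80 and 9.62 CPM in WKY and at 6.71, 5.26 and 19.1 CPM in SHR. The strains overlapped at both ages, through the high batch 2 library of WKY. Its log2 difference was 1.90 (SE 0.25) at 5 days and 0.76 (SE 0.24) at 3 months. Ccdc92 (gene 100036765) was at 2.54, 2.63 and 7.55 CPM in WKY and at 6.97, 6.98 and 29.4 CPM in SHR at 5 days. By 3 months it was at 6.04, 4.80 and 10.2 CPM in WKY and at 12.5, 10.05 and 41.3 CPM in SHR. It too overlapped between the strains at both ages, at 3 months by a narrow margin. The log2 difference of Ccdc92 was 1.63 (SE 0.25) at 5 days and 1.35 (SE 0.24) at 3 months. In batch 2 the SHR library held 3.89 times the WKY level of Ccdc92 at 5 days and 4.03 times at 3 months, against 2.70 and 2.08 in batch 1. The 5-day difference ran from 1.79 to 2.02 for Sh2d4a and from 1.38 to 1.71 for Ccdc92 without single libraries.

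Tub (gene 25609) had a strain difference at 5 days and hardly any at 3 months. At 5 days it was at 18.9, 14.7 and 21.4 CPM in WKY and at 2.46, 2.75 and 7.59 CPM in SHR. At 3 months it was at 0.886, 1.06 and 2.55 CPM in WKY and at 0.944, 0.935 and 1.74 CPM in SHR. The 3 WKY libraries at 5 days stood above all others, and at 3 months the strains overlapped fully. The log2 difference was -2.30 (SE 0.28) at 5 days and -0.24 (SE 0.29) at 3 months. The WKY to SHR ratio at 5 days was 6.44 in batch 1 and 2.82 in batch 2, and at 3 months 1.04 and 1.47. The 5-day difference ran from -2.59 to -2.07 without single libraries.

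**Figure D2:**
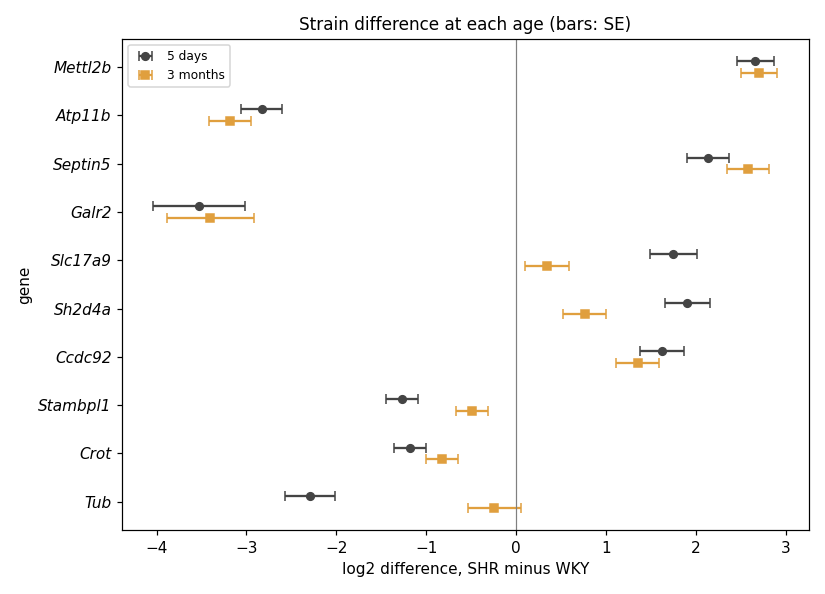
Log2 difference between the strains (horizontal axis, SHR minus WKY, from the edgeR model) for the 10 genes at 5 days (circles) and 3 months (squares); bars are 1 SE. Mettl2b, Atp11b, Septin5 and Galr2 keep differences beyond 2 in size at both ages, and Tub goes from -2.30 to -0.24.

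The strain difference at 3 months minus that at 5 days is a description of the same values. It lay within 1 SE of 0 for Mettl2b (0.04, SE 0.27), Galr2 (0.12, SE 0.59) and Ccdc92 (-0.27, SE 0.34), and was -0.35 (SE 0.31) for Atp11b, 0.36 (SE 0.25) for Crot and 0.44 (SE 0.32) for Septin5. It was larger for Tub (2.05, SE 0.40), Slc17a9 (-1.41, SE 0.35), Sh2d4a (-1.14, SE 0.34) and Stambpl1 (0.77, SE 0.25), in each of which the strains lay closer at 3 months. All 10 genes were called at 5 days and 4 at 3 months, so their choice can favour a smaller difference at 3 months. The edgeR model called this change for 0 of the 10. Without replicates 2 and 3 of WKY at 5 days, the libraries with Kdm5d, the 5-day log2 difference was 2.35 for Mettl2b, -2.68 for Atp11b, 2.04 for Septin5, -3.86 for Galr2 and 1.86 for Slc17a9. For the others it was 2.20 for Sh2d4a, 1.61 for Ccdc92, -1.50 for Stambpl1, -1.10 for Crot and -2.76 for Tub, so that all 10 kept their direction. With replicates 1 and 2 of SHR at 5 days averaged to 1, it ran from -3.51 (Galr2) to 2.72 (Mettl2b), again with no change of direction. In all, 7 of the 10 genes had strains that did not overlap at 5 days (background 9.52%) and 4 of 10 at 3 months (background 10.1%). Those at 3 months, Mettl2b, Atp11b, Septin5 and Galr2, were apart in the same direction at both ages (background 2.13%) and were also the 4 called at both ages, as were 26 of all 13397 genes tested (0.194%). Overlap and calls both rest on the strain values that chose the genes, so neither backs the other.

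How the 10 genes changed between 5 days and 3 months was tested over both strains, with the batch as a term in the model. Of the 10, 5 changed (background 12.9%): Slc17a9, Ccdc92, Stambpl1 and Crot rose and Tub fell. Tub fell by 2.74 on the log2 scale (SE 0.21, edgeR adjusted p 0.000249), a fold of 6.69. Slc17a9 rose by 1.07 (SE 0.18, edgeR adjusted p 0.00643). Ccdc92 rose by 0.75 (SE 0.17, edgeR adjusted p 0.0218), Stambpl1 by 0.50 (SE 0.12, edgeR adjusted p 0.0310) and Crot by 0.45 (SE 0.12, edgeR adjusted p 0.0422). Of the 12 fits that each left out 1 library, the call was kept in all 12 for Tub and Slc17a9, in 6 for Ccdc92, in 3 for Stambpl1 and in 2 for Crot. The log2 change in these fits stayed between 0.64 and 0.89 for Ccdc92, 0.41 and 0.58 for Stambpl1 and 0.36 and 0.52 for Crot, with a highest adjusted p of 0.0661, 0.0897 and 0.111. Without the 2 libraries with Kdm5d the changes of Tub (-2.97, edgeR adjusted p 0.000835) and Slc17a9 (1.13, 0.00759) were called. Those of Ccdc92 (0.74, edgeR adjusted p 0.0720), Stambpl1 (0.38, 0.0944) and Crot (0.48, 0.0597) were not, at sizes close to the full model's for Ccdc92 and Crot. The tubby gene thus had the largest change with age of the 10 and the vesicular ATP transporter the next.

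Among the remaining 5 genes the age difference did not pass the test. It was -0.30 (SE 0.14, edgeR adjusted p 0.163) for Mettl2b, -0.36 (SE 0.16, 0.147) for Atp11b and -0.03 (SE 0.16, 0.924) for Septin5. It was 0.69 (SE 0.35, 0.209) for Galr2 and 0.47 (SE 0.17, 0.0990) for Sh2d4a. The 4 genes called between strains at both ages are thus all among those with no age call, which does not show that their levels were equal at the 2 ages.

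The age comparisons within a strain share their libraries with the strain comparisons that chose the genes, and are not independent of them. In WKY, 2 of the 10 were called (background 3.74%): Tub with a log2 difference of -3.77 (SE 0.30, edgeR adjusted p 0.000904) and Slc17a9 with 1.77 (SE 0.26, edgeR adjusted p 0.00914). In SHR, 2 of the 10 were called (background 2.06%): Tub with -1.71 (SE 0.29, edgeR adjusted p 0.0232) and Stambpl1 with 0.89 (SE 0.18, edgeR adjusted p 0.0400). The calls in SHR were kept in 7 and 4 of 12 fits without a library, with a highest adjusted p of 0.104 and 0.161. For Slc17a9 in SHR the difference was 0.37 (SE 0.25), and for Stambpl1 in WKY 0.11 (SE 0.18); neither was called. Sh2d4a differed by 1.04 (SE 0.25, edgeR adjusted p 0.0531) in WKY and by -0.10 (SE 0.24) in SHR.

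**Figure D3:**
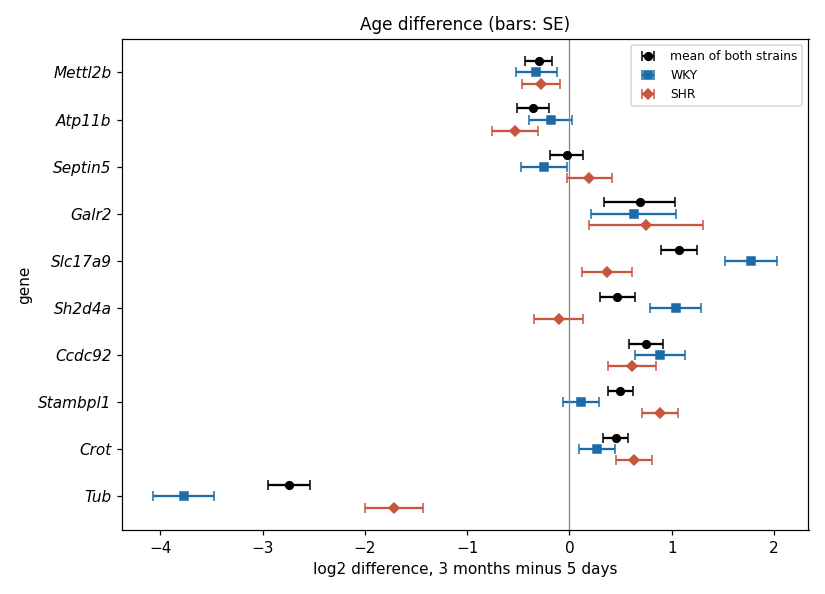
Log2 difference between the ages (horizontal axis, 3 months minus 5 days, from the edgeR model) for the 10 genes, as the mean of both strains (black), in WKY (blue) and in SHR (red); bars are 1 SE. Tub lies far to the left in both strains, at -3.77 in WKY and -1.71 in SHR, and Slc17a9 lies to the right mainly in WKY.

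Markers of cell types differed with age, with batch and, for some, with strain. By edgeR, 7 of 11 tested chondrocyte markers were lower at 3 months (median log2 -3.55) and 11 of 11 were higher in batch 2 (median log2 3.82), against medians over all tested genes of -0.02 for each. The summed level of all 13 chondrocyte markers ran from 63.9 to 7773 CPM in WKY and 1053 to 30763 CPM in SHR at 5 days, and from 40.1 to 536 and 26.1 to 1671 CPM at 3 months. Tub is best known from neurons: of 5 tested neuron and glia markers 2 were higher at 3 months and 0 lower, and 8 of the 9 listed summed to 19.0 to 56.7 CPM in WKY and 64.5 to 74.9 CPM in SHR at 5 days, and to 54.8 to 86.1 and 40.0 to 135 CPM at 3 months, with Elavl4 at 0 in SHR at 3 months. The median of that sum was lowest, at 49.3 CPM, in WKY at 5 days, the group where Tub was highest. The 5 tested markers had median log2 strain differences, SHR minus WKY, of -0.45 at 5 days and -0.28 at 3 months, the direction of Tub. By edgeR 0 of the 5 were called between strains at either age, with 1 and 2 at an unadjusted p under 0.05 and 1 and 2 called by DESeq2.

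Between strains, edgeR called 0 of the 11 chondrocyte markers at either age, with 4 at an unadjusted p under 0.05 and 3 called by DESeq2 at each age, and median log2 differences, SHR minus WKY, of 1.51 and 2.06. Of 7 synovial lining and tendon markers 1 was called, Tnmd, a tendon glycoprotein that was lower in SHR at 5 days. The median of that list was -1.62 at 5 days and 0.35 at 3 months, and its sum ran from 191 to 287 CPM in WKY and 74.6 to 111 CPM in SHR at 5 days, without overlap. At 3 months it ran from 119 to 415 CPM in WKY and 77.1 to 492 CPM in SHR, with Tnmd at 0 in both. With age, Prg4 and Htra4 of this list were higher and Tnmd and Mkx lower, and in batch 2 Prg4 and Mkx were higher and Tnmd lower. Of 6 smooth muscle and pericyte markers 4 were higher in batch 2 (median 1.93), and their strain medians were 0.75 and 1.48 with 0 edgeR calls (unadjusted 2 and 4, DESeq2 2 and 2). The sum of all 7 listed ran from 2113 to 14932 CPM in WKY and 7531 to 12374 CPM in SHR at 5 days, and from 499 to 8857 and 4031 to 8643 CPM at 3 months, with Rgs5 at 0 in WKY at 3 months. Of 4 tested macrophage markers edgeR called 0 between strains (unadjusted 3 and 0, DESeq2 2 and 0). The sum of 8 of the 9 listed ran from 19.5 to 89.5 CPM in WKY and 13.1 to 19.9 CPM in SHR at 5 days. Lyz2 was at 39.8 CPM in replicate 1 of WKY at 5 days and at 5.49 CPM or less in every other library. In the short lists, Cd14 (macrophage) was higher at 3 months, Tek (endothelial) was lower at 3 months and in batch 2, and Sp7 (osteoblast) was lower at 3 months and higher in batch 2. The 5 osteoblast markers summed to 85.0 to 3334 CPM in WKY and 1158 to 1206 CPM in SHR at 5 days. At 3 months they summed to 184 to 931 CPM in WKY and 1086 to 1839 CPM in SHR, without overlap. Of the 2 tested, edgeR and DESeq2 called 0 between strains at either age. No adipocyte marker passed the filter, and no red blood cell marker was matched in the table. In bulk RNA, fewer cells of a type and less RNA per cell cannot be told apart. The part of the cell makeup in the differences of the 10 genes between strains, ages and batches was not tested.

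Batch divided the 10 genes as well. Of the 10, 7 were called between batches (background 45.2%), with Septin5 (log2 1.21, SE 0.16), Slc17a9 (1.01, SE 0.18), Sh2d4a (1.68, SE 0.17), Ccdc92 (1.63, SE 0.17) and Tub (1.05, SE 0.20) higher in batch 2 and Stambpl1 (-0.51, SE 0.14) and Crot (-1.12, SE 0.14) lower. The call of Stambpl1 was lost without replicate 3 of WKY at 5 days (edgeR adjusted p 0.0568). Mettl2b (-0.25, SE 0.15, edgeR adjusted p 0.196), Atp11b (-0.14, SE 0.16, 0.530) and Galr2 (-0.63, SE 0.36, 0.182) were not called between batches. Each batch held all 4 groups, so the model could take a batch difference shared by all groups out of the comparisons of strain and age. A strain difference that varied between batches was not modelled. The ratios within batches varied for some genes, as for Tub at 5 days (6.44 in batch 1 and 2.82 in batch 2).

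Genes that share a pathway with the 10 were set out in 9 lists, and 171 of their 194 genes in the table were tested. Between strains edgeR called 1 of the 171 at each age, Enpp1, the enzyme that makes pyrophosphate from extracellular ATP. Enpp1 was at 385 ± 310 CPM in WKY and 166 ± 94.2 CPM in SHR at 5 days and at 686 ± 331 and 259 ± 149 CPM at 3 months (SD, n = 3, batches together), with log2 differences of -1.09 (SE 0.17, edgeR adjusted p 0.0358) and -1.46 (SE 0.17, 0.0115). The 5-day call of Enpp1 was kept in 2 of 12 fits without a library (highest adjusted p 0.226) and the 3-month call in 11 of 12. At an unadjusted p under 0.05 the lists held 14 genes at 5 days and 24 at 3 months, or 8.19% and 14%, against 9.64% and 12.1% of all genes tested. DESeq2 called 4 and 14 of them, and limma-voom 1 and 1. The extracellular ATP and pyrophosphate list held 6 genes of 19 at an unadjusted p under 0.05 at each age (31.6%) and 2 and 6 DESeq2 calls. DESeq2 called Alpl, the alkaline phosphatase that breaks down pyrophosphate, at both ages (log2 1.74 and 1.203), where edgeR gave adjusted p of 0.0655 and 0.145.

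Besides Enpp1, no related gene was called between strains by edgeR. Of 26 tested tRNA methyltransferases and partners, 0 were called by edgeR at either age (unadjusted p under 0.05 in 0 and 2, DESeq2 0 and 1), with medians of -0.07 and -0.04. Of 19 flippases and scramblases 0 were called (unadjusted 4 and 5, DESeq2 1 and 3), and Atp11a, a relative of Atp11b, had log2 differences of -0.63 (SE 0.23) at both ages. Of 15 septins and septin-binding proteins 0 were called (unadjusted 3 and 2, DESeq2 0 and 1), and Septin7, a core subunit of septin filaments, had differences of 0.49 (SE 0.16) and 0.70 (SE 0.16). Tulp3, a relative of Tub, differed by 0.11 and 0.08 (SE 0.14 each), in a list of 37 tubby and cilium genes with 0 calls (unadjusted 0 and 4, DESeq2 0 and 0). The 23 endosomal sorting genes (unadjusted 0 and 0, DESeq2 0 and 0), the 28 peroxisomal and carnitine genes (unadjusted 1 and 4, DESeq2 1 and 2) and the 4 SH2 adaptors (unadjusted 0 and 1, DESeq2 0 and 1) likewise held no edgeR call between strains.

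With age, 18 of the 171 related genes were called over both strains, 14 higher and 4 lower at 3 months, beside a background of 12.9%. The extracellular ATP and pyrophosphate list, that of Slc17a9, held 8 of them among 19 tested, with a median of 0.68. Enpp1 rose by 0.82 (SE 0.12, edgeR adjusted p 0.00400), Nt5e, which turns AMP into adenosine, by 2.24 (SE 0.41, 0.00898) and the nucleotide receptor P2ry6 by 2.39 (SE 0.49, 0.0153), and these 3 calls were kept in all 12 fits without a library. The receptors P2rx3 (1.11), P2rx5 (0.68), P2rx7 (1.00) and the adenosine receptor Adora2a (2.43) rose as well, and Panx1, a channel that releases ATP, fell by 0.46, each call being kept in 3 to 10 of those fits. In the flippase list, Atp8b1 fell by 3.21 (SE 0.37, edgeR adjusted p 0.00127), called in 12 of 12 fits, while Atp8b4 (2.79) and the scramblase Xkr8 (0.61) rose. Among cilium genes Ift80 (0.50) and Fbf1 (0.35) rose and Gpr161 (-0.52) and Inpp5e (-0.35) fell. The other calls were the septin Septin10 (0.49), Chmp1b (0.45), which helps to sever endosomal membranes, and Pex7 (0.52), a peroxisomal import receptor. Of the 9 genes named after Atp8b1, Ift80 was called in 12 of 12 fits without a library and the others in 2 to 8.

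To see whether the strain differences extended along the chromosome, the 3 nearest tested genes on each side of each of the 10 genes were taken from the RefSeq gene order, 60 genes in all. By edgeR 0 of the 60 were called between strains at either age (background 0.343% and 0.358%). With so small a share over all genes, 0 of 60 does not show that the neighbours lacked a strain difference. At an unadjusted p under 0.05 there were 4 and 5 (6.67% and 8.33%, against 9.64% and 12.1% of all genes tested), and limma-voom called 0 and 0. DESeq2 called 3 at 5 days, the lipase gene Lpl beside Sh2d4a, the cholesterol hydroxylase gene Ch25h beside Stambpl1 and Tmem243 beside Crot, and 0 at 3 months. The median log2 difference of the neighbours was -0.01 at 5 days and 0.02 at 3 months. Near Atp11b, the 6 neighbours ran from -0.30 (Mccc1) to 0.50 (Ccdc39) at 5 days, and near Mettl2b from -0.32 (Myl4) to 0.49 (Mrc2), while the genes between them differed by -2.83 and 2.66. By contrast, the genes on either side of Crot (-1.18), Tmem243 (-1.11, SE 0.29) and Abcb4 (-1.21, SE 0.62), differed about as much at 5 days. At 3 months they differed by -0.33 and -0.12, and edgeR called neither at either age. Abcb4 was close to the counting limit at 5 days, at 0.37 ± 0.23 CPM in WKY and 0.16 ± 0.10 CPM in SHR (mean ± SD), so its difference is imprecise. The 10 genes were chosen for their strain differences and the neighbours were not, which favours a contrast between them. The largest neighbour values were -4.63 for Ch25h at 5 days and 2.09 for Acta2, a smooth muscle actin, at 3 months, neither called by edgeR. With age, 8 of the 60 were called, 6 higher and 2 lower, near the background of 12.9% of all genes tested. Among them were Rflna beside Ccdc92 (-6.74, SE 1.05) and Abcb4 beside Crot (2.43, SE 0.40). Rflna was low, at 0.89 ± 0.98 CPM in WKY and 2.05 ± 3.41 CPM in SHR at 5 days (mean ± SD). At 3 months Rflna averaged 0.0189 CPM in WKY and 0 CPM in SHR.

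**Figure D4:**
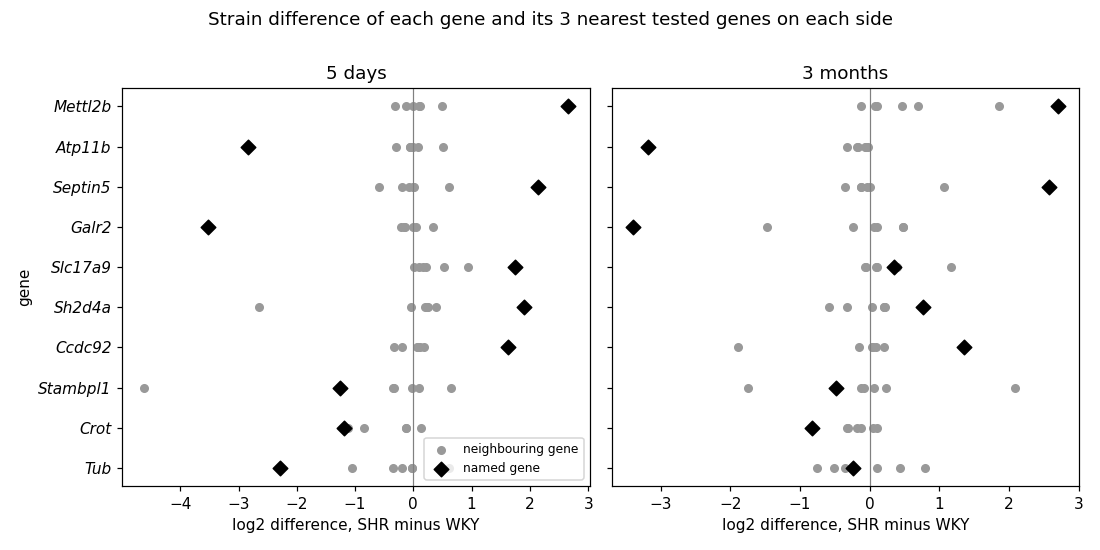
Log2 difference between the strains (horizontal axis, SHR minus WKY) at 5 days (left) and 3 months (right) for each of the 10 genes (black diamonds) and its 3 nearest tested genes on each side (grey circles). At 5 days most neighbours lie near 0 while the 10 genes lie beyond 1 in size, with Ch25h at -4.63 and Lpl at -2.66 as the farthest neighbours.

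The genes outside the 10 whose profile over the 12 libraries was most like each of them were found by the root mean square difference of log2 (CPM + 0.1), each profile centred on its mean, so that a smaller value is a closer match. The closest were Gstt3 (0.476) for Mettl2b, LOC685025 (0.502) for Atp11b, Hey2 (0.368) for Septin5 and LOC100364500 (0.520) for Galr2. For the others they were Eef1a2 (0.403) for Slc17a9, Pax6 (0.466) for Sh2d4a, Cgref1 (0.542) for Ccdc92, Tmem243 (0.227) for Stambpl1, Pycard (0.229) for Crot and Egflam (0.705) for Tub. The second closest to Crot was Acaa1a (0.233), a peroxisomal thiolase on the carnitine list, whose strain differences were -0.81 and -0.88. Next to Galr2 the second was RT1-CE3 (0.544), a histocompatibility gene. Within the 10, Stambpl1 and Crot (0.362) and Sh2d4a and Ccdc92 (0.390) were the closest pairs, and the latter were closer to each other than to any gene outside the 10, and Tub had no close partner (1.68 to Atp11b, its nearest). The points share strain, age and batch, so these values describe likeness and carry no test.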

How the data were processed

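Expression was given in 1 table of expected counts that the authors deposited (RSEM's estimates of reads per gene, which can be fractional) and in 5 deposited tables of log2 expression. The build Rnor_6.0 and the tools RSEM 1.2.28, Bowtie2 2.4.4 and DESeq2 1.42.1 stand in the submitters' processing notes. The strandedness, the annotation release and how the log2 values were made are not given in the sources used here. Of the deposited counts, 9.17% were fractional.

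Counts were rounded and fitted in R 4.3.3 by the robust quasi-likelihood method of edgeR 4.0.16, after TMM scaling and filterByExpr by group. The 12 libraries entered 1 model with group and batch as terms, and p-values were adjusted by Benjamini-Hochberg over 13397 genes. SEs were derived from the test statistic. All CPM values are TMM-scaled and come from the rounded counts, and their SDs hold the difference between batches. At depths of 17839101 to 20358123, 1 expected count was worth 0.0598 CPM in replicate 3 of SHR at 5 days. The script was tested on simulated counts with known changes.

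The 10 genes and the lists of related genes and markers were chosen with earlier results of these data known. The naming rule took the 10 genes, the related and neighbouring genes called in a strain or age comparison, up to 3 related genes of highest level per list, and the 2 most alike genes for each of the 10; some of these are not printed. Gene order and promoters are those of RefSeq's GRCr8, where 15776 identifiers were found, and coordinates were not converted. Alternatives used another scaling, DESeq2 1.42.0 or limma-voom (limma 3.58.1), no filter, no batch term, a replicate block, fewer libraries, or limma on the deposited log2 table of all libraries. The libraries numbered 3 share batch 2, whereas those numbered 1 and 2 did not pair across groups (correlation of their differences -0.155 to 0.0623).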

Additional observations from a re-analysis of the deposited data

How the results depend on the processing

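All strain differences of the 10 genes kept their sign in every alternative; the widest range was that of Galr2 at 5 days (-3.86 to -0.90), whose smallest size came from the deposited log2 table, in which a log2 value is on the authors' own scale. The count of strain calls among them ran from 2 to 10 at 5 days (10 in the model used) and from 2 to 6 at 3 months (4). Over both strains the number of the 10 genes called with age, 5, was 1 with no batch term, 3 in batch 1 alone, 2 with replicates 1 and 2 of SHR at 5 days averaged and 2 with both WKY 5-day replicates 2 and 3 left out. It ran from 2 to 6 without single libraries. In WKY the count of 2 was 4 by DESeq2 and 1 with no batch term. In SHR the count of 2 was 0 by limma-voom, with no batch term, with only the groups compared (9 of the 10 then tested), in batch 1 alone and with the averaged libraries, and ran from 0 to 2 without single libraries. With the replicate number as a block in place of batch, it was 1 in SHR, 6 of the 10 were called between strains at 5 days, and the 5-day call of Enpp1 was lost (0 related genes called); the pairing of replicates moved none of the other tested counts of the 10, the related or the neighbouring genes by over 1.5 times. Related genes called at 5 days numbered 4 by DESeq2, 2 in the deposited log2 table, 0 with no batch term, with the averaged libraries and without both WKY libraries, and 0 to 1 without single libraries. At 3 months they numbered 14 by DESeq2, 4 in the deposited log2 table, 2 in batch 1 alone, 0 with no batch term and 0 to 2 without single libraries. Neighbouring genes called at 5 days numbered 3 by DESeq2. Of the values that were not called, the age difference of Septin5 over both strains turned to 0.0939 with no batch term and 0.0112 with the averaged libraries and ran from -0.208 to 0.0517 without single libraries. That of Atp11b in WKY turned to 0.0398 in batch 1 alone. That of Stambpl1 in WKY turned to -0.0380 in batch 1 alone and -0.130 without both WKY libraries, and ran from -0.0563 to 0.22 without single libraries. Counts over all genes ran from 6 to 381 between strains at 5 days (46 in the model used), 10 to 607 at 3 months (48), 588 to 3028 with age (1727), 110 to 1495 in WKY (501) and 18 to 1088 in SHR (276), with the highest by DESeq2 in each of these 5. Fits without a library leave a group with 2, whose spread was taken from all libraries. Where no cause is named, the cause was not tested. Depth limits Galr2 most, at 1 to 6.45 expected counts per SHR library.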
